A study of Homo sapiens with 18 samples.

Results

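The comparison sets 3 RNA-seq libraries labelled AMO1 gN1E against 3 labelled LP1 gN1E, 6 of the 18 libraries in the series. They were chosen by their sample labels alone, and the level of NEAT1 in them is high, as in cells that received a control oligonucleotide. AMO1, LP1 and NCI-H929 are established human multiple myeloma lines, grown in RPMI medium with 10% serum. The study lowered NEAT1 with a gapmeR, an antisense oligonucleotide that cuts its target RNA, called g#N1_E, and used a scrambled gapmeR, g#SCR, as control, each given naked to the cells (gymnosis) at 5 µM for 48 hours. Per the labels the 6 libraries come from cells given the NEAT1 gapmeR. Total RNA was depleted of ribosomal RNA in a stranded protocol, and paired reads of 150 bases were counted per gene. The totals were 49784737, 28061606 and 29663430 counts in AMO1 gN1E A, C and D, and 57247024, 45406587 and 44091209 counts in LP1 gN1E A, B and D. Levels in the 6 libraries are given as CPM, the counts of a gene relative to the library total. They are scaled between these 6, except where another scaling is named. Folds are ratios of mean CPM, except where the lower label had 3 counts or fewer: there the mean of the higher label is divided by the CPM of the lower label with its 3 libraries pooled, or by that of a floor of 3 counts where it had none. The log2 differences with their SE come from the fit, so fold and log2 value can differ where counts are few.

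Myeloma is a cancer of plasma cells, the antibody-secreting end stage of the B cell lineage. Its lines keep much of the secretory programme, including one rearranged heavy and light chain, and each carries its own set of oncogenes, often placed beside the immunoglobulin heavy chain locus by a translocation, and its own cyclin D gene. NEAT1 is a long non-coding RNA that forms the scaffold of paraspeckles, bodies in the nucleus that hold RNA-binding proteins.

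The labels were checked first. NEAT1, the target, was 466, 538 and 506 CPM in the libraries labelled AMO1 gN1E and 642, 651 and 819 CPM in those labelled LP1 gN1E. The libraries labelled SCR held less, with a mean of 79.8 ± 7.85 CPM (SD, n = 3) under the AMO1 label and 161 ± 27.0 CPM (SD, n = 3) under the LP1 label. NEAT1 was therefore higher in the libraries labelled with the knock-down than in those labelled with the scrambled control, which goes against the labels, and the column names of the tables swap SCR for gN1E and H929 for LP1. The AMO1 label and the table names do not differ on the line.

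Immunoglobulin genes mark a clone, because each plasma cell keeps one rearranged heavy and light chain. As background, AMO1 and NCI-H929 are known to make IgA with a kappa light chain, and LP-1 IgG with a lambda light chain. IGKC, the kappa constant gene, was 10896, 10102 and 10222 CPM under the AMO1 label and 6392, 6962 and 6599 CPM under the LP1 label. Both labels thus held kappa at a high level and did not overlap. The lambda constant genes summed to 0.639 ± 0.209 CPM of the unscaled library total (SD, n = 3) under the AMO1 label and 6.63 ± 0.969 (SD, n = 3) under the LP1 label, and the IgG constant genes to 28.0 ± 2.02 and 0.263 ± 0.0351 (SD, n = 3 each). IgG was thus not high under the LP1 label, which goes against it. The lambda constant sum can miss lambda, since the libraries labelled H929 gN1E held 17.03 beside 1184 for the lambda segment IGLV3-21. The lambda variable segments were low under the LP1 label as well, with a mean sum of 4.269, which also goes against it. The IgA constant genes summed to 8598 ± 1092 under the AMO1 label and 8.93 ± 1.36 under the LP1 label (SD, n = 3 each), so IgA was low there too, which goes against NCI-H929, the line in the headers of those tables. The libraries labelled H929 gN1E held mostly IgA, at 11010 ± 273.7, and kappa, at 9730 ± 260.3 (SD, n = 3 each), as known of both NCI-H929 and AMO1. Their leading segments IGHV3-23 and IGKV3-20 were those of the AMO1 label, at 1394 ± 398.4 and 1539 ± 49.01 against 1993 ± 191.6 and 1624 ± 96.67 (SD, n = 3 each). The IgA and kappa there thus do not tell NCI-H929 from AMO1. These libraries also held IgG at 1059 ± 16.7 and the lambda segment IGLV3-21 at 1184 ± 22.3 (SD, n = 3 each). Their lambda constant genes stood at 17.03 ± 3.31 (SD, n = 3). IgG and lambda are those known of LP-1, the line in the headers of those tables. These values do not settle which line is which, so the 6 libraries are called only the libraries labelled AMO1 gN1E and labelled LP1 gN1E, and "the AMO1 label" and "the LP1 label" stand for them below.

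IGHA1, the IgA heavy chain, was 8540, 6451 and 6980 CPM under the AMO1 label and 7.66, 7.12 and 9.42 CPM under the LP1 label. No heavy chain constant gene was high under the LP1 label, where IGHA1 led that list. The leading variable segments differed as well. IGHV3-23 held 1866, 2050 and 1766 CPM under the AMO1 label and 0 counts in all 3 libraries under the LP1 label, at least 88100-fold higher against a floor of 3 counts over the group. IGKV3-20 led the kappa segments under the AMO1 label with 1617, 1404 and 1617 CPM, beside 0.0182, 0.142 and 0.0236 CPM under the LP1 label, and it shares reads with IGKV3D-20, so the split between that pair is uncertain. IGKV3-15 led under the LP1 label with 1717, 1764 and 1529 CPM, and was uneven under the AMO1 label at 24.6, 0.429 and 19.3 CPM. No IGHV segment exceeded 0.895 CPM in any library of the LP1 label. The one that led there, IGHV1OR21-1, lies on chromosome 21, outside the heavy chain locus on chromosome 14. IGHV2-5, on chromosome 14, came next at 0.421 ± 0.148 CPM of the unscaled library total (SD, n = 3). The lambda segments were low in both: IGLV3-1 had at most 1.02 CPM under the AMO1 label and IGLV3-9 at most 3.75 CPM under the LP1 label. JCHAIN, which joins antibody units, was 3631, 3764 and 4050 CPM under the AMO1 label and 4311, 4158 and 3824 CPM under the LP1 label, with a log2 difference of -0.10 that did not pass the test and turned to 0.04 with library size only. JCHAIN passed with limma-voom, another test (adjusted p = 0.0428), and without LP1 gN1E D (log2 -0.145, adjusted p = 0.0243).

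Of the IG heavy constant list, 7 of 9 genes were tested, 6 were higher under the AMO1 label and 1, IGHE, under the LP1 label, with a median log2 difference of 4.61 that was 7.165 without LP1 gN1E B and ran from 3.99 to 9.40 over 15 alternatives. Of all genes tested 70.4% passed, 34.0% higher under the AMO1 label and 36.4% under the LP1 label. IGHE, the IgE constant gene, was 0.137, 0.297 and 0.128 CPM against 2.32, 3.18 and 3.56 CPM, while IGHM had 0 counts in all 6 libraries and IGHD at most 0.0786 CPM. IGHG1 to IGHG4 share reads, and each was below 27 CPM in every library. Of the light constant and J chain list, 5 of 7 were tested, with 1 higher under the AMO1 label and 3 under the LP1 label. The largest level among the latter was IGLL5, a gene within the lambda locus, at 27.3, 24.2 and 26.0 CPM against 188.1, 188.0 and 175.4 CPM, while IGLC2 and IGLC3, which share reads with other lambda genes, were below 7 CPM throughout. IGLC1 had 0 counts and IGLC7 at most 0.0475 CPM.

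The cells of both labels carried plasma cell markers, and B cell markers were low. SDC1, the plasma cell surface proteoglycan CD138, was 11529, 10661 and 9927 CPM under the AMO1 label and 1211, 1256 and 1186 CPM under the LP1 label. SDC1 was thus high in all 6 libraries and 8.79-fold higher under the AMO1 label (log2 3.14, SE 0.0622, adjusted p = 5.35e-23), with no overlap. CD38, the surface enzyme that therapeutic antibodies bind, was 88.0, 85.7 and 87.5 CPM against 41.0, 42.5 and 39.0 CPM. The reverse held for TNFRSF17, the survival receptor BCMA, at 103.7, 103.3 and 111 CPM against 381, 410 and 358 CPM, and for SLAMF7, a surface antigen of plasma cells, at 181, 188 and 191 CPM against 491, 473 and 465 CPM. CD27, another plasma cell marker, was at most 0.128 CPM in any library. The B cell genes CD22, MS4A1 and PAX5 were low: PAX5, the B cell identity factor, reached 1.07 CPM under the LP1 label with 0 counts under the AMO1 label. CD22 and MS4A1 did not exceed 0.0471 and 0.0393 CPM.

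Of 23807 genes tested, 16749 passed the test at an adjusted p of 0.05, which is 70.4%. Of these, 8084 (34.0% of the genes tested) were higher under the AMO1 label and 8665 (36.4%) under the LP1 label. At a difference of at least 4-fold the numbers were 2355 (9.89%) and 2916 (12.2%). The median absolute log2 difference was 0.795, and for 17384 genes all 3 libraries of one label lay above all 3 of the other. With such a share, passing the test says little about any one list, and each list below is read against 70.4%, 34.0% and 36.4% and against a median log2 difference of all genes tested of -0.02. Scaling by library size only moved that median by 0.1426, to 0.12, and the AMO1 label then held 55.1% of the calls in place of 48.3%. Where the median of a list moved by more than 1.5 times in other ways, its range over the 15 alternatives is given as well. Most list members code for proteins, a class that passed more often, at 81.0%. Of its 14083 genes tested, 5072 were higher under the AMO1 label and 6331 under the LP1 label, with a median of -0.11. Beside that class, lists with more genes higher under the LP1 label stand out less. Nothing in the labels says that the 3 libraries of a group are separate cultures, so the test may measure technical spread alone. An exact permutation test of 3 libraries against 3 cannot go below a two-sided p of 0.1. In such bulk samples fewer cells of a type and less RNA per cell cannot be told apart.

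By kind of gene, 14083 protein-coding genes were tested, with 5072 higher under the AMO1 label, 6331 higher under the LP1 label and 81.0% passing. The 5733 long non-coding genes leaned the other way, with 1972 higher under the AMO1 label and 1503 under the LP1 label, 60.6% passing, and a median log2 difference of 0.19 beside -0.11 for protein-coding genes. NEAT1 itself was 1.40-fold higher under the LP1 label (log2 -0.48, SE 0.0924, adjusted p = 0.000765), a call that was lost with library size only. MALAT1, another abundant nuclear RNA, was 4493, 4521 and 4729 CPM against 4872, 4837 and 4637 CPM, its groups overlapped, and its log2 difference of -0.06 did not pass the test and turned to 0.08 with library size only. The paraspeckle protein list of 17 symbols had 18 entries, since MATR3 has 2 entries and both are counted. Of these 18, 9 were higher under the AMO1 label and 7 under the LP1 label, none of them by 4-fold, with a median log2 difference of 0.13. The entry of MATR3 with the lower level was among the 7 and lost its call without any 1 library but AMO1 gN1E C. HNRNPH3, an RNA-binding protein, had means of 92.6 ± 4.99 and 45.6 ± 2.50 CPM (SD, n = 3 each).

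Oncogenes of the kind that translocations switch on separated the labels. FGFR3, a receptor tyrosine kinase on chromosome 4, was 0.216, 0.132 and 0.0320 CPM under the AMO1 label and 707, 703 and 716 CPM under the LP1 label. FGFR3 was thus close to 0 in every library of one label and high in every library of the other, 5590-fold higher under the LP1 label by the ratio of mean CPM. The fitted log2 difference was -12.26 (SE 0.123, adjusted p = 6.35e-28). NSD2, a histone methyltransferase gene next to FGFR3 on chromosome 4 (chr4:1871393-1982207, hg38), was 207, 195 and 193 CPM under the AMO1 label and 1596, 1618 and 1685 CPM under the LP1 label. NSD2 was expressed in all 6 libraries, without overlap, and 8.22-fold higher under the LP1 label. MAF, a leucine zipper transcription factor, had 0.0196, 0 and 0 CPM under the AMO1 label and 178, 198 and 207 CPM under the LP1 label, which is 21900-fold by the pooled counts with a counting interval from 3920 to 863000, since 1 count was seen under the AMO1 label. ITGB7, the beta 7 integrin subunit and a known target of MAF, was 147, 145 and 138 CPM under the AMO1 label and 4515, 4878 and 5010 CPM under the LP1 label, 33.5-fold higher there. CCR1, a chemokine receptor, was at most 0.929 CPM under the AMO1 label and at least 386 CPM under the LP1 label.

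The labels differed in the cyclin D gene they expressed. CCND2, cyclin D2, was 1875, 1761 and 1854 CPM under the AMO1 label and 1.82, 1.97 and 1.23 CPM under the LP1 label. CCND1, cyclin D1, was 38.4, 35.0 and 36.6 CPM under the AMO1 label and 173, 177 and 177 CPM under the LP1 label. Thus all libraries of the AMO1 label were high for CCND2 and all of the LP1 label were higher for CCND1, with no overlap for either gene. CCND2 was 1100-fold higher under the AMO1 label (log2 10.09, SE 0.102, adjusted p = 1.81e-26) and CCND1 was 4.80-fold higher under the LP1 label. Per length, in TPM, CCND2 stood at 731 ± 13.6 and CCND1 at 24.6 ± 0.0632 under the AMO1 label, and at 0.582 ± 0.128 and 103.2 ± 6.42 under the LP1 label (SD, n = 3 each). CCND3, cyclin D3, which was named after its values were seen, differed little, with means of 45.7 ± 1.79 and 54.5 ± 1.64 CPM (SD, n = 3 each).

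Of the 17 genes of the translocation and cyclin D list, 3 were higher under the AMO1 label and 12 under the LP1 label, 7 of the latter by 4-fold, with a median log2 difference of -1.51 beside -0.02 for all genes. MYC, the growth-driving transcription factor, was 959, 809 and 836 CPM under the AMO1 label and 557, 557 and 583 CPM under the LP1 label, and PVT1, the non-coding gene beside it, was 2.20-fold higher under the AMO1 label. MYC was 1.53-fold higher under the AMO1 label, without overlap. TACC3, a spindle protein gene beside FGFR3, was 77.6, 68.9 and 68.7 CPM against 198, 214 and 201 CPM.

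**Figure D1:**
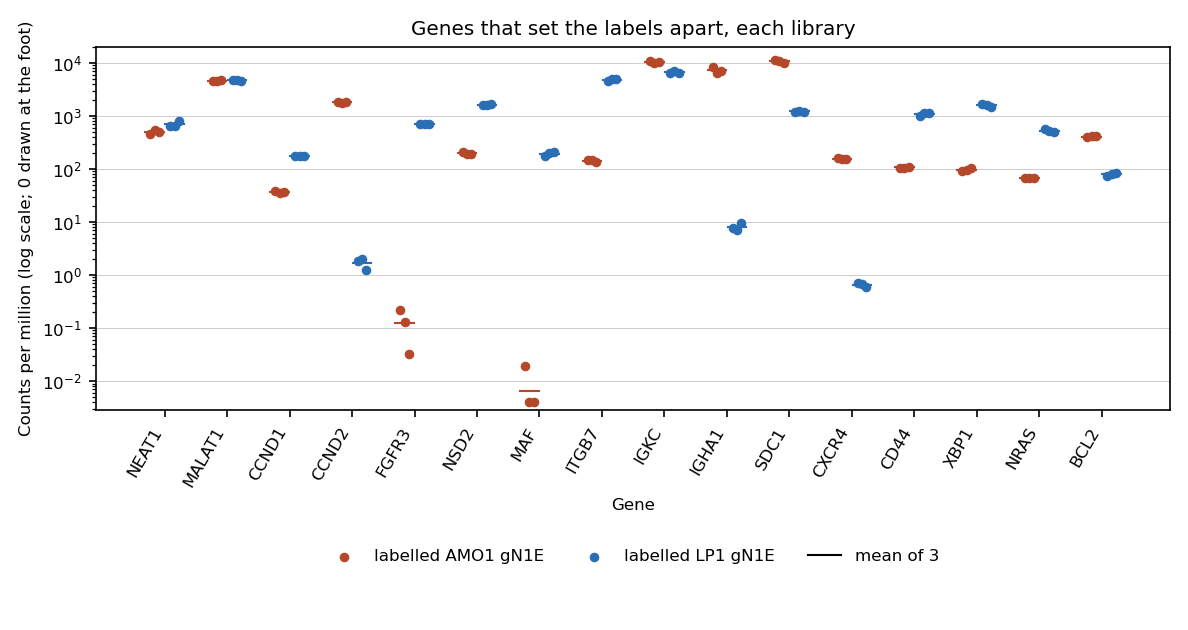
CPM of 16 named genes (log scale, 0 drawn at the foot) in the 3 libraries labelled AMO1 gN1E and the 3 labelled LP1 gN1E, with a line at each mean. FGFR3 and MAF sit near 0 under the AMO1 label and above 170 CPM under the LP1 label, CCND2 is the reverse, and the MALAT1 libraries overlap (its direction turns with library size only).

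Genes mutated or lost in myeloma went both ways. NRAS, a signalling GTPase, was 68.7, 67.1 and 66.2 CPM under the AMO1 label and 558, 521 and 496 CPM under the LP1 label. Every library of the LP1 label was thus above every library of the AMO1 label, 7.79-fold. The list of 43 tumour suppressor and driver genes was evenly split, with 19 higher under each label and a median log2 difference of 0.0016 (-0.02 to 0.15), which turned or moved by more than 1.5 times without any 1 of the 6 libraries. FAT1, a giant cadherin, was at most 1.59 CPM under the AMO1 label and at least 69.7 CPM under the LP1 label, and SP140, a chromatin reader of lymphoid cells, was 28.8-fold higher under the AMO1 label.

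Antigen presentation through MHC class II, the molecules that show peptides to CD4 T cells, leaned to the AMO1 label. CIITA, the master activator of these genes, was 268, 238 and 247 CPM under the AMO1 label and 5.47, 5.22 and 5.61 CPM under the LP1 label. CD74, the invariant chain that guides class II molecules, was 2414, 1916 and 2181 CPM under the AMO1 label and 0.418, 1.12 and 0.660 CPM under the LP1 label. HLA-DRA, the alpha chain of HLA-DR, was 631, 628 and 663 CPM under the AMO1 label and 0.745, 0.974 and 0.471 CPM under the LP1 label. In these 3 genes every library of the AMO1 label was far above every library of the LP1 label. CD74 was 2970-fold higher (log2 11.58, SE 0.2497, adjusted p = 8.51e-08) and CIITA differed by 5.53 on the log2 scale (SE 0.0704, adjusted p = 1.46e-26). HLA-DOA, a chain of the class II modulator HLA-DO, was 63.4, 63.3 and 60.7 CPM under the AMO1 label and had 0 counts in the 3 libraries of the LP1 label, at least 2910-fold higher under the AMO1 label. HLA-DQA1, the alpha chain of HLA-DQ, was 128, 125 and 136 CPM against 0.0182, 0.0950 and 0.0471 CPM, 2430-fold higher. CIITA and HLA-DRA were named after their values were seen.

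All 16 genes of the class II list were tested, and 15 were higher under the AMO1 label, 12 of them by 4-fold, against 34.0% and 9.89% of all genes, and none was higher under the LP1 label. The median log2 difference was 8.09, and it was 8.09 also with the gene at 0 set to its bound. Of the factors that bind class II promoters, RFX5 was 347 ± 2.92 CPM under the AMO1 label and 168 ± 2.94 CPM under the LP1 label (SD, n = 3 each), and RFXAP 11.7 ± 0.630 against 3.73 ± 0.309 CPM (SD, n = 3 each). RFXANK, the other partner in that complex, was 37.7, 30.7 and 32.9 CPM against 32.0, 35.5 and 31.5 CPM, overlapped, and did not pass the test (log2 0.04, adjusted p = 0.674). HLA-DOB, the partner chain of HLA-DOA, differed least among the HLA class II genes, at 6.09, 5.09 and 5.22 CPM against 4.18, 3.42 and 4.52 CPM (log2 0.44, adjusted p = 0.0066). HLA-DRB1 and HLA-DRB5 share reads, so their separate levels of 214 and 20.6 CPM under the AMO1 label are uncertain, while both were below 1 CPM under the LP1 label. The 4 genes RFX5, RFXAP, RFXANK and HLA-DOB were also named after their values were seen.

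Because these genes moved together, their promoters were read. The promoter table used, drawn from RefSeq (GRCh38.p14), held a promoter for 11 of 12 genes, the HLA class II genes and CD74. That table had no entry for HLA-DRA and CIITA. The Y box is a short element of class II promoters with the core ATTGG, and the longer TGATTGG contains it. On either strand of the 250 bases before the start, ATTGG or its reverse CCAAT was in 10 of the 11 promoters and in 33% of the 27305 promoters of the table, and TGATTGG or its reverse in 6 of the 11 and in 6.9% of all. The 6 were HLA-DRB1, HLA-DRB5, HLA-DQB1, HLA-DMA, HLA-DOA and HLA-DOB. Shown are the 120 bases before the start of 4 of them, all on the minus strand and written 5′ to 3′ on the gene's strand, with TGATTGG in capitals, at chr6:32589849-32589968 for HLA-DRB1, chr6:33009592-33009711 for HLA-DOA, chr6:32666658-32666777 for HLA-DQB1 and chr6:32817003-32817122 for HLA-DOB. They were chosen after the values were seen, because HLA-DOA and HLA-DOB are partner chains that differ in their contrast and HLA-DRB1 and HLA-DQB1 are the classical beta chains.
HLA-DRB1: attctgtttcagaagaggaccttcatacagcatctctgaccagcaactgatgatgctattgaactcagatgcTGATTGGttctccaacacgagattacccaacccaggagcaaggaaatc
HLA-DOA: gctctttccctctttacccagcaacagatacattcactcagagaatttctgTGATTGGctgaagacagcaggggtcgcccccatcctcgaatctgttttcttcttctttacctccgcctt
HLA-DQB1: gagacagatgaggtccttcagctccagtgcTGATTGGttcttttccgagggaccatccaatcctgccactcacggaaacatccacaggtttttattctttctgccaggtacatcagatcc
HLA-DOB: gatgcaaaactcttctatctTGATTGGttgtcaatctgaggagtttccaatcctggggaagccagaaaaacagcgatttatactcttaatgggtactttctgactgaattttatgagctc
The motif began 48, 69, 90 and 100 bases before the start in this order. Of these 4 genes, HLA-DOB differed by 0.44 on the log2 scale and HLA-DOA by 14.36, a fitted value that is no bound. Whether the motif bears on the difference between the labels was not tested. A match of letters describes a sequence and is not evidence of binding.

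**Figure D2:**
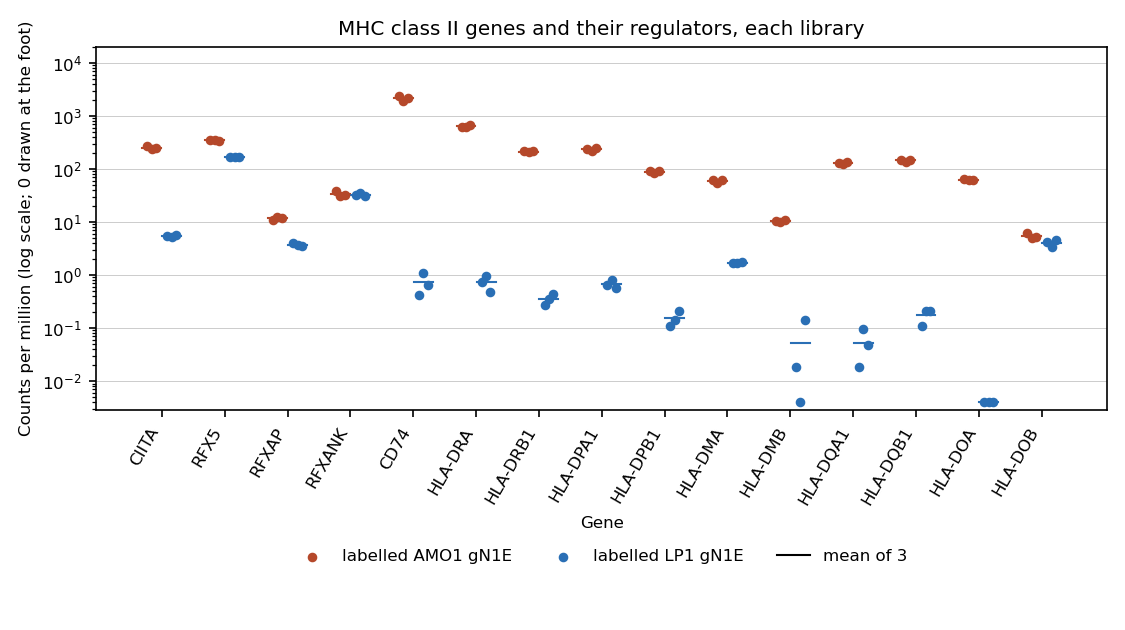
CPM (log scale, 0 drawn at the foot) of CIITA, the RFX factors, CD74 and the HLA class II genes in each of the 6 libraries, with a line at each mean. RFXANK overlaps between the labels and HLA-DOB differs least among the HLA class II genes, while CD74, HLA-DRA and HLA-DOA are near or at 0 under the LP1 label.

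MHC class I, which shows peptides to CD8 T cells, was present under both labels and mostly higher under the AMO1 label. HLA-B was 999, 963 and 945 CPM under the AMO1 label and 134, 147 and 143 CPM under the LP1 label, and B2M, the shared light chain of class I molecules, 1466, 1474 and 1503 CPM against 633, 625 and 609 CPM. HLA-B was 6.86-fold and B2M 2.38-fold higher under the AMO1 label, without overlap. All 19 genes of the class I list passed, 12 higher under the AMO1 label and 7 under the LP1 label, with a median log2 difference of 0.93. TAP1, which carries peptides into the endoplasmic reticulum, was 2.77-fold higher under the AMO1 label, and the chaperones CALR and PDIA3 were 1.42-fold and 1.32-fold higher under the LP1 label.

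Genes of the B cell lineage did not all go one way. TCF4, a transcription factor of the B and plasmacytoid lineages, was 326, 312 and 334 CPM under the AMO1 label and 31.5, 31.6 and 30.1 CPM under the LP1 label. SPIB, an ETS factor of B cells, was 11.1, 10.5 and 13.04 CPM against 0.145, 0.285 and 0.306 CPM. Both were thus higher in every library of the AMO1 label, by 10.4-fold and 47.0-fold. ETS1 and BCL11A, also factors of lymphoid cells, were 4.74-fold and 4.13-fold higher under the LP1 label. Of 16 B cell factors tested, 5 were higher under the AMO1 label and 9 under the LP1 label, with a median log2 difference of -0.67 (-0.73 to -0.31). B cell receptor signalling leaned to the AMO1 label, with 15 of 22 higher there and 5 under the LP1 label, and a median of 1.15. Its kinases BLK, at 5.90 ± 0.238 against 0.163 ± 0.0618 CPM, and BTK, at 8.97 ± 0.792 against 1.22 ± 0.274 CPM (SD, n = 3 each), were low genes, while VAV1, an exchange factor, was 2.96-fold higher under the LP1 label. LYN, a kinase of the same pathway, was 1.16-fold higher under the LP1 label and lost its call with library size only.

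The plasma cell factors went both ways as well. XBP1, the factor that builds the secretory apparatus, was 92.3, 95.7 and 103 CPM under the AMO1 label and 1660, 1610 and 1496 CPM under the LP1 label. PRDM1, the repressor that ends the B cell programme, was 219, 233.1 and 232.6 CPM against 730.4, 762 and 784 CPM. All libraries of the LP1 label exceeded all of the AMO1 label, 16.4-fold for XBP1 (log2 -4.04, SE 0.0624, adjusted p = 4.47e-25) and 3.32-fold for PRDM1. IRF4, on which myeloma cells depend, was high in both at 1531, 1475 and 1515 CPM against 2100, 2067 and 2117 CPM. Of the 14 factors, 5 were higher under the AMO1 label and 7 under the LP1 label (median log2 -0.29), and TSC22D3, a glucocorticoid-induced factor, was 6.21-fold higher under the AMO1 label while RUNX1, a blood cell factor, was 3.17-fold higher under the LP1 label.

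XBP1 belongs to the unfolded protein response, which matches folding capacity to secretion. Of the 40 genes of that list, 12 were higher under the AMO1 label and 20 under the LP1 label, with a median log2 difference of -0.20. MZB1, a chaperone of antibody assembly that is not on the list, was 576, 529 and 536 CPM against 849, 850 and 810 CPM, and SSR4, a translocon subunit, was 2.43-fold higher under the LP1 label. Members of the list that were higher under the AMO1 label included 3 genes of cell stress. DDIT3, the stress factor CHOP, was 34.6, 38.9 and 41.5 CPM under the AMO1 label and 4.25, 5.06 and 3.86 CPM under the LP1 label, and TRIB3, which DDIT3 is known to induce, was 116, 99.0 and 106 CPM against 20.4, 21.3 and 19.9 CPM. The libraries of the AMO1 label were above those of the LP1 label in both genes, by 8.74-fold and 5.21-fold, and CHAC1, a glutathione-degrading enzyme, by 4.11-fold. Proteasome subunits, the target of bortezomib, differed less: 9 of 39 were higher under the AMO1 label and 22 under the LP1 label, none by 4-fold, with a median of -0.17 (-0.20 to -0.02). PSMA4, a core subunit, was 2.05-fold higher under the LP1 label and PSMB9, an immunoproteasome subunit, 1.95-fold higher under the AMO1 label.

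NF-kB genes, which carry survival signals in plasma cells, leaned to the AMO1 label. BIRC3, an inhibitor of cell death induced by NF-kB, was 272, 292 and 290.3 CPM under the AMO1 label and 1.73, 1.90 and 2.17 CPM under the LP1 label. BIRC3 was thus high in every library of the AMO1 label and 147-fold higher there (log2 7.21, SE 0.0805, adjusted p = 2.17e-27). TNFRSF13B, the receptor TACI, was 27.0, 25.2 and 24.7 CPM against 0.563, 0.427 and 0.377 CPM. REL, a subunit of NF-kB, was 3.62-fold higher under the LP1 label, where BCL2A1, an anti-death gene induced by NF-kB, also was higher at 3.56, 3.37 and 3.18 CPM against at most 0.256 CPM. Of 33 genes tested, 21 were higher under the AMO1 label, 11 of them by 4-fold, and 9 under the LP1 label, with a median log2 difference of 0.60. Further members, named after their values were seen, included TNFAIP3, a brake on NF-kB, at 344 ± 3.89 against 23.4 ± 0.887 CPM, and MAP3K14, the kinase NIK, at 105.1 ± 5.84 against 18.3 ± 0.653 CPM (SD, n = 3 each).

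Of the BCL2 family, which sets the threshold for cell death, 8 of 17 were higher under the AMO1 label and 7 under the LP1 label, with a median log2 difference of 0.06 (-0.01 to 0.20), which was -0.01 without AMO1 gN1E A and 0.13 without AMO1 gN1E C. BCL2, the protector that venetoclax targets, was 401, 411 and 413 CPM under the AMO1 label and 74.8, 82.2 and 85.0 CPM under the LP1 label, 5.06-fold higher under the AMO1 label. BCL2L1, the protector BCL-XL, was 26.8, 22.2 and 24.9 CPM against 66.1, 68.1 and 62.7 CPM. Thus BCL2 was higher in the libraries of one label and BCL2L1 in those of the other, without overlap. The killers BBC3 and PMAIP1 were 6.38-fold and 10.5-fold higher under the AMO1 label, and BMF, another killer, 2.26-fold higher under the LP1 label.

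Surface molecules separated the labels in both directions. CXCR4, the receptor that holds plasma cells in bone marrow, was 162, 154.1 and 154.0 CPM under the AMO1 label and 0.708, 0.665 and 0.589 CPM under the LP1 label. CD44, an adhesion receptor for hyaluronan, was 105.1, 107 and 109 CPM under the AMO1 label and 1002, 1122 and 1125 CPM under the LP1 label. CXCR4 was thus 240-fold higher under the AMO1 label and CD44 10.1-fold higher under the LP1 label, with no overlap in either. CD70, a ligand of the TNF family, was 233, 189.5 and 199.8 CPM under the AMO1 label and at most 1.48 CPM under the LP1 label, and CD200, an inhibitory ligand, reached 3.13 CPM under the LP1 label and 0.0786 CPM under the AMO1 label. CD4, a co-receptor best known from T cells, was 301, 317 and 283 CPM under the AMO1 label and 0.0182, 0 and 0.118 CPM under the LP1 label. Of 33 surface antigens and therapy targets tested, 17 were higher under the AMO1 label and 14 under the LP1 label, with a median log2 difference of 0.21 (0.09 to 0.39).

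Adhesion genes leaned to the LP1 label, with 23 of 39 higher there, 13 by 4-fold, and 12 under the AMO1 label (median log2 -0.78, -0.80 to -0.49 over the alternatives). CDH2, N-cadherin, had 0 counts in the 3 libraries of the AMO1 label and 67.3, 67.1 and 65.2 CPM under the LP1 label, at least 2490-fold higher there. ITGA8, an integrin alpha subunit, was 113, 115 and 117 CPM under the LP1 label with 1 count under the AMO1 label, a ratio of 12900 with a counting interval from 2320 to 510000. L1CAM and JAM2, adhesion molecules of the immunoglobulin family, and SDC4, a syndecan, were low genes, 54.6-fold, 50.3-fold and 51.1-fold higher under the AMO1 label. Of 30 actin and myosin genes, 8 were higher under the AMO1 label and 18 under the LP1 label (median -0.81). LCP1, the leukocyte actin-bundling protein L-plastin, was 624, 647 and 628 CPM under the AMO1 label and 2.65, 4.44 and 3.65 CPM under the LP1 label, while its relative PLS3 had 0 counts under the AMO1 label and 3.54, 3.54 and 2.97 CPM under the LP1 label. MYO1G, a myosin of blood cells, was 191-fold higher under the AMO1 label and MYO1E, a related motor, higher under the LP1 label (7.82 ± 0.810 against 101.4 ± 8.38 CPM; SD, n = 3 each).

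Receptors for growth factors and cytokines were split, with 13 of 34 higher under the AMO1 label and 16 under the LP1 label (median log2 -0.16, -0.46 to -0.01 over the alternatives and -0.23 without AMO1 gN1E A). IL2RG, the common cytokine receptor chain, was 88.2, 72.2 and 84.96 CPM under the AMO1 label and at most 0.309 CPM under the LP1 label. ERBB2, a receptor tyrosine kinase, was 6.66-fold higher under the AMO1 label, and FGFR2 had 0 counts there and 3.67, 3.21 and 3.13 CPM under the LP1 label. Secreted factors of bone and growth had 5 of 16 higher under the AMO1 label and 8 under the LP1 label (median -0.69, -1.35 to -0.47 over the alternatives, the former without AMO1 gN1E A). CCL5, a chemokine for T cells, was 99.8, 87.9 and 93.0 CPM under the AMO1 label and 4.07, 5.08 and 4.22 CPM under the LP1 label, and IL16, a cytokine that binds CD4, was 8.94-fold higher under the AMO1 label. IGF1, a growth factor for myeloma cells, was 5.58-fold higher under the AMO1 label. DKK1, a secreted Wnt inhibitor that blocks bone formation, had 0 counts under the AMO1 label and 1.85, 2.18 and 2.14 CPM under the LP1 label, at least 77.2-fold higher there.

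Notch and Wnt genes had 16 of 38 higher under the AMO1 label and 18 under the LP1 label (median log2 -0.08, -0.18 to 0.06 over the alternatives and -0.0465 without LP1 gN1E A). LRP6, a Wnt co-receptor, and FZD6, a Wnt receptor, had 0 counts under the AMO1 label and means of 43.8 ± 1.33 and 68.3 ± 3.94 CPM (SD, n = 3 each) under the LP1 label. WNT10A and WNT3, Wnt ligands, were higher under the AMO1 label, at 26.6 ± 3.48 and 5.34 ± 0.261 CPM (SD, n = 3 each), with DLL3, a Notch ligand, at 4.14, 4.46 and 4.71 CPM. Interferon-stimulated genes leaned to the LP1 label, with 22 of 40 higher there and 12 under the AMO1 label (median -0.48), and they did so unevenly. MX1, an antiviral GTPase, was 0.314, 0.132 and 0.673 CPM under the AMO1 label and 56.7, 63.7 and 59.3 CPM under the LP1 label. SAMD9, another antiviral factor, was 286, 288 and 312 CPM against 20.9, 25.95 and 27.02 CPM. The libraries thus separated fully in both genes, 161-fold towards the LP1 label for MX1 and by a log2 difference of 3.59 towards the AMO1 label for SAMD9, and the neighbours MX2 and SAMD9L went the same way as MX1 and SAMD9.

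Epigenetic regulators leaned to the AMO1 label, with 21 of 32 higher there and 8 under the LP1 label (median log2 0.35). DNMT3B, a DNA methyltransferase, was 149.9, 144 and 143 CPM under the AMO1 label and 21.9, 19.3 and 21.2 CPM under the LP1 label, and TET1, which oxidises methylated DNA, 130, 135 and 136 CPM against 22.6, 23.1 and 26.2 CPM. IDH2, the mitochondrial isocitrate dehydrogenase, was 11.98, 11.7 and 10.2 CPM under the AMO1 label and 396, 439 and 424 CPM under the LP1 label. DNMT3B and TET1 were thus higher under the AMO1 label, by 2.80 and 2.48 on the log2 scale, and IDH2 37.2-fold higher under the LP1 label. The list of HOX genes, which set position in the embryo, also held MEIS1 and MEIS2, which are not HOX genes. Of its 25 genes tested, 13 were higher under the AMO1 label and 7 under the LP1 label (median 0.90, 0.84 to 1.64 over the alternatives and 1.38 without LP1 gN1E B). HOXB9 was 19.7, 15.5 and 16.9 CPM and HOXD4 5.30, 4.36 and 4.58 CPM under the AMO1 label, with 3 and 0 counts under the LP1 label, whereas HOXB13 reached 5.94 CPM under the LP1 label with 1 count under the AMO1 label.

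Cancer-testis antigens, normally kept to germ cells, showed different members under each label. Of 25 tested, 9 were higher under the AMO1 label, 8 by 4-fold, and 12 under the LP1 label, 11 by 4-fold, with a median log2 difference of -0.05 (-1.80 to 0.08) that lay on the other side of all genes in 2 of 15 alternatives and turned or moved by more than 1.5 times without any 1 library but AMO1 gN1E A. MAGEA4 had 0 counts under the AMO1 label and 214, 224 and 206 CPM under the LP1 label, and SSX1 had 0 counts against 107, 128 and 120 CPM. CTAG2 and MAGEA10 were the reverse, at 82.6, 70.8 and 73.8 CPM and 48.4, 46.5 and 48.6 CPM under the AMO1 label and below 0.330 CPM under the LP1 label. In these 4 genes the libraries thus separated fully by label, while 4 of the 25 did not pass in either direction, and since MAGE, SSX and CTAG genes share reads with their relatives, their single levels are uncertain.

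The cell cycle lists also differed. S phase genes, active while DNA is copied, had 29 of 43 higher under the AMO1 label and 5 under the LP1 label (median log2 0.32), and G2/M genes, active before division, had 14 of 54 and 34 of 54 (median -0.26). PCNA, the sliding clamp of DNA synthesis, was 199, 189 and 202 CPM against 70.6, 67.8 and 60.7 CPM. CDCA7, an S phase list member, was 59.1, 55.1 and 60.7 CPM under the AMO1 label and at most 0.0726 CPM under the LP1 label. GAS2L3 and PIMREG of the G2/M list, a cytoskeletal linker and a mitotic regulator, had 0 counts under the AMO1 label and means of 21.5 ± 1.31 and 30.2 ± 3.01 CPM (SD, n = 3 each) under the LP1 label. Of 23 G1 regulators and inhibitors, 9 were higher under the AMO1 label and 11 under the LP1 label (median -0.01, -0.05 to 0.14 over the alternatives, on the other side of all genes in 5 of 15 and moved or turned without any 1 of the 6 libraries). CDK6, a kinase that works with cyclin D, was 365, 375 and 369 CPM against 1024, 999 and 1039 CPM, and CDKN2C, the inhibitor p18 of that kinase, was 45.4, 44.8 and 46.6 CPM against 250.3, 254.6 and 249.3 CPM. Both were thus higher in all libraries of the LP1 label.

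Genes commonly used for normalisation were not equal between the labels: all 18 housekeeping genes passed, 6 higher under the AMO1 label and 12 under the LP1 label (median log2 -0.24). HPRT1, a purine salvage enzyme, was 16.8, 17.996 and 16.85 CPM against 103.6, 96.4 and 94.1 CPM, 5.69-fold higher under the LP1 label. GUSB, a lysosomal enzyme, was 2.34-fold higher under the AMO1 label. The 40 genes the study followed had 19 higher under the AMO1 label and 18 under the LP1 label (median 0.09). The study chose them on AMO1 cells with NEAT1 lowered or raised, so partly on the AMO1 libraries of this series. They are therefore not independent evidence of a direction. Among them, ITPR1, a calcium channel, was 11.7-fold higher under the AMO1 label and PDE4D, a phosphodiesterase, 8.42-fold higher under the LP1 label.

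**Figure D3:**
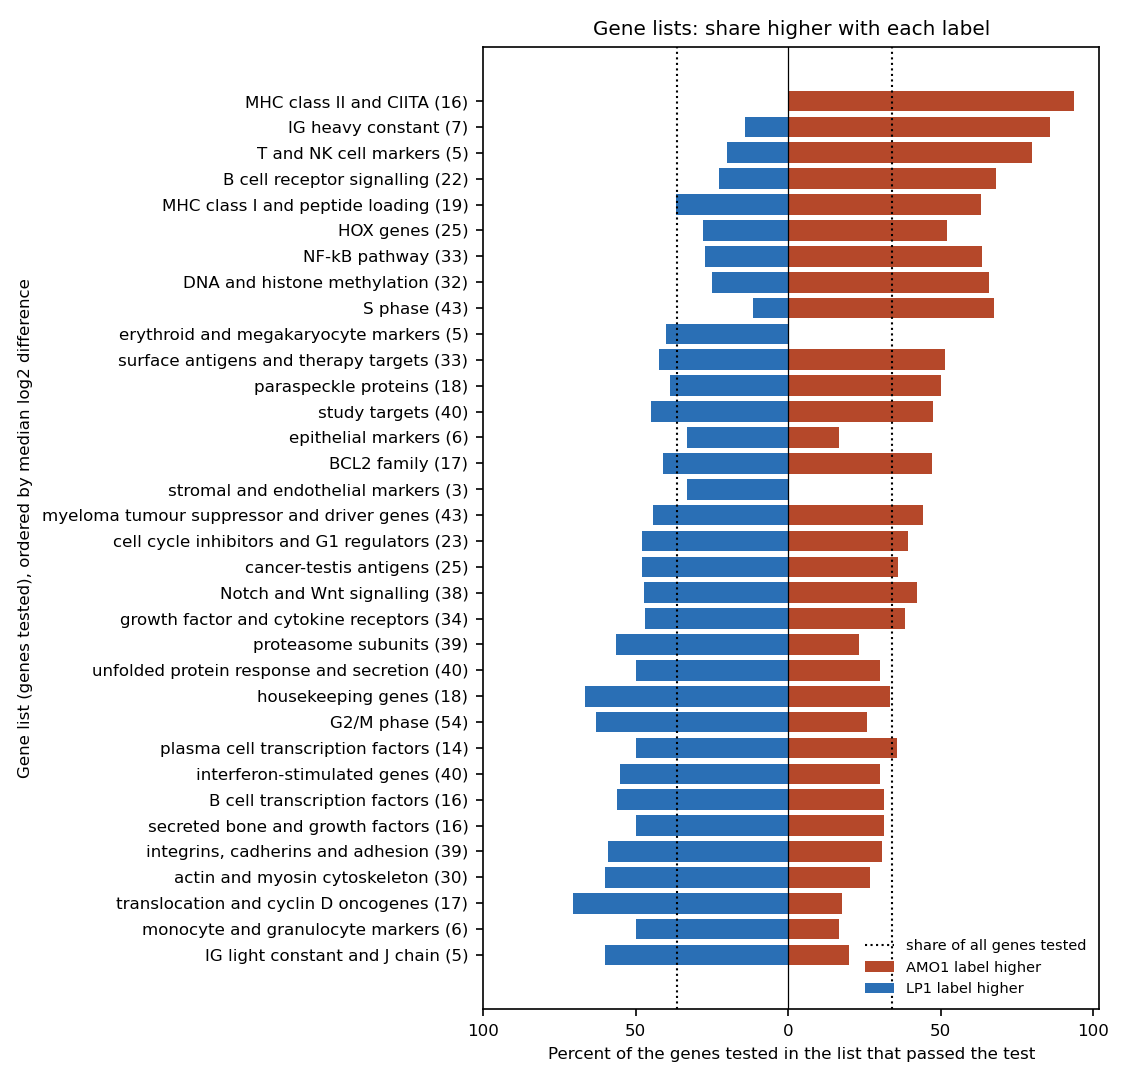
For the gene lists, each with the number of genes tested, the percent of those genes that passed the test with the AMO1 label higher (right) or the LP1 label higher (left), beside dotted lines at the share of all genes tested. The class II list has 15 of 16 genes to the right and none to the left, and the translocation and cyclin D list has 12 of 17 to the left.

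Markers of other cell types were few, and their part in the differences above was not tested. Of 12 T and NK cell markers, 5 were tested, 4 higher under the AMO1 label and 1 under the LP1 label (median log2 2.42, 0.76 to 2.82 over the alternatives). Their summed level was 26.4 to 30.8 CPM across the AMO1 label and 11.2 to 15.6 CPM across the LP1 label, most of it CD3E, a T cell receptor subunit, while CD8B, CD5 and GZMA had 0 counts under the AMO1 label and CD8A had 0 under the LP1 label. Of 12 monocyte and granulocyte markers, 6 were tested, 1 was higher under the AMO1 label and 3 under the LP1 label (median -1.90, -6.84 to -0.47 over the alternatives, and -2.94, -3.03 and -3.63 without AMO1 gN1E A, AMO1 gN1E D and LP1 gN1E A), with sums of 0.429 to 1.06 CPM and 4.43 to 6.93 CPM. CSF1R, the receptor for a macrophage growth factor, made up most of that under the LP1 label, and VCAN led under the AMO1 label, while MPO, ELANE, FCN1 and FCGR3A had 0 counts in all 6 libraries. Of 11 erythroid and megakaryocyte markers, 5 were tested and 2 were higher under the LP1 label (median 0.22, -0.25 to 0.48 over the alternatives, on the other side of all genes in 3 of 15), with sums of 25.1 to 42.6 and 31.0 to 39.1 CPM, EPOR the most abundant, HBA1 and HBA2 uncertain because they share reads, and ALAS2, AHSP, PF4 and PPBP at 0. Of 12 stromal and endothelial markers, 3 were tested and 1 was higher under the LP1 label (median 0.02, -4.41 to 0.23 over the alternatives, on the other side of all genes in 5 of 15). That one was PECAM1, an adhesion molecule of endothelial and blood cells, at 294, 308 and 309 CPM against 0.707, 0.495 and 0.737 CPM, so the sum was 2.05 to 2.28 CPM under the AMO1 label and 296 to 310 CPM under the LP1 label. COL1A2, COL3A1, DCN, LUM, CDH5 and KDR were at 0 in all 6 libraries, and COL1A1 led under the AMO1 label. Of 9 epithelial markers, 6 were tested, 1 was higher under the AMO1 label, CDH1, and 2 under the LP1 label, KRT18 and KRT8 (median 0.07, -0.77 to 0.21 over the alternatives, on the other side of all genes in 1 of 15). Their sums were 9.15 to 11.5 and 37.7 to 41.0 CPM, led by CDH1 and by KRT18, CLDN3 was at 0, and CLDN4, EPCAM and KRT7 did not pass the test, with KRT5 and KRT19 not tested. EPCAM passed without AMO1 gN1E D (adjusted p = 0.0457) and without LP1 gN1E B (adjusted p = 0.0132). The medians of these 5 lists rest on 3 to 6 genes. Without 1 library, those of the erythroid, stromal and epithelial lists turned or moved by more than 1.5 times for all 6, except AMO1 gN1E C in the erythroid and AMO1 gN1E D in the epithelial list.

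Some genes were on under one label and silent under the other. A gene was counted as on at 1 CPM or more in all 3 libraries of a label and as off at 3 counts or fewer summed over the other 3. By this rule, of the 62703 genes listed, 217 were on under the AMO1 label alone, 93 of them protein-coding. Under the LP1 label alone 573 were on, 449 of them protein-coding. The limit for off is in raw counts, and the libraries of the AMO1 label held fewer counts, so it was looser there. How far this adds to the larger number under the LP1 label was not tested. FAM30A, a long non-coding gene within the immunoglobulin heavy chain locus, had 0 counts under the AMO1 label and 473, 486 and 529 CPM under the LP1 label. KCTD3, which codes for a potassium channel tetramerisation domain protein, had 0 counts against 459, 445 and 422 CPM. Each was thus abundant in every library of the LP1 label and not seen under the AMO1 label, at least 18600-fold and 16600-fold higher. PDGFB, a growth factor for stromal cells, had 0 counts against 228, 278 and 291 CPM, and P2RY6, a nucleotide receptor, 0 counts against 158, 170.5 and 170.1 CPM. APP, the amyloid precursor, and LAPTM4B, a lysosomal membrane protein, had 3 counts and 1 count under the AMO1 label against means of 289 ± 12.3 and 278 ± 9.60 CPM (SD, n = 3 each). OCRL, an inositol phosphatase, SHROOM3, an actin regulator, and EVC, a protein of the cilium, had 0 counts under the AMO1 label and at least 115 CPM in each library of the LP1 label.

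In the other direction TLR7, a sensor of single-stranded RNA, was 175, 158 and 181 CPM under the AMO1 label with 3 counts under the LP1 label, a ratio of 7960 with a counting interval from 2720 to 38600. SERPINF1, the secreted factor PEDF, was 395, 363 and 370 CPM under the AMO1 label with 5 counts under the LP1 label, just outside the rule, and GPC6, a glypican, was 53.2, 51.9 and 51.4 CPM with 1 count. TRPC4, a calcium channel, and FAM178B had 0 counts under the LP1 label and at least 36.6 and 43.02 CPM in each library of the AMO1 label. LIN28B, which blocks maturation of let-7 RNAs, was 14.8, 15.1 and 16.1 CPM under the AMO1 label with 0 counts under the LP1 label, at least 714-fold higher. NLRP2, a member of the NLR family, had means of 67.3 ± 3.84 and 0.0157 ± 0.0272 CPM (SD, n = 3 each). By the same rule, 162 of the 217 and 457 of the 573 were also on and off in the libraries labelled SCR.

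On/off genes lay next to each other in places. Among genes expressed under either label, 29 runs of neighbours on only under the AMO1 label held 65 genes, the longest 5, and 82 runs on only under the LP1 label held 199 genes, the longest 8. Immunoglobulin segments were counted in these runs, and the run of 5 held 4 of them. The run of 8 covered 2.17 Mb on chromosome 5 (chr5:129904465-132076170, hg38) with CHSY3, HINT1, LYRM7, CDC42SE2, RAPGEF6, FNIP1, ACTBP4 and CSF2. Under the AMO1 label these 8 genes had 1 count in all, and under the LP1 label 65507. HINT1, a nucleotide hydrolase, had 0 counts against 186, 198 and 184 CPM, and CDC42SE2, which binds the GTPase CDC42, 0 counts against 94.7, 90.3 and 88.7 CPM. The expressed genes on each side were seen under both labels, ISOC1 at 14.8 ± 1.19 against 34.8 ± 1.62 CPM and P4HA2 at 6.74 ± 2.05 against 51.3 ± 2.10 CPM (SD, n = 3 each). In the libraries labelled SCR the same 8 genes had 0 counts under AMO1 and 84114 under LP1. The flanking genes were named after the run was found.

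Whole regions leaned to one label. Over 15210 genes with a mean of at least 1 CPM, the median log2 difference was -0.03. Chromosome 13 stood apart with a median of 1.39 over 275 genes, 231 of them higher under the AMO1 label and 30 under the LP1 label, and it was 1.34 in the libraries labelled SCR. Over all genes tested, without that CPM limit, 34.0% were higher under the AMO1 label and 36.4% under the LP1 label. RB1, the tumour suppressor on that chromosome, which was named after its values were seen, was 124, 125 and 128 CPM under the AMO1 label and 81.7, 82.7 and 75.9 CPM under the LP1 label. The next highest medians were 0.38 on chromosome 2 and 0.38 on chromosome 12, and the lowest were -0.33 on chromosome 5 and -0.39 on chromosome 15. On chromosome 2, 577 of 1012 genes were higher under the AMO1 label and 276 under the LP1 label. On chromosome 15 the numbers were 116 and 290 of 502. Of 292 windows of 10 Mb with at least 10 genes, the highest were 1.77 and 1.72 on chromosome 13, 1.71 on chromosome 12 (20000001 to 30000000), 1.65 on chromosome 19 and 1.65 on chromosome 2. The lowest were -1.39, -1.13, -1.12 and -1.08 on chromosome 5, all between 100000001 and 140000000, and -1.07 at the end of chromosome X. All 10 windows had the same sign in the libraries labelled SCR.

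The chromosome 19 window, from 50000001 to 60000000, held 192 genes, of which 157 were higher under the AMO1 label and 17 under the LP1 label. Over the whole of chromosome 19 the numbers were 425 and 434 of 1038 genes. The window carries a dense cluster of zinc finger genes, which code for DNA-binding repressors. Its 85 zinc finger genes had a median log2 difference of 1.98 with 73 higher under the AMO1 label, and its other 107 genes one of 1.14. Zinc finger genes elsewhere on chromosome 19 (111) had a median of 0.84, with 78 higher under the AMO1 label. Those on other chromosomes (250) had one of 0.12, with 118 higher there. This grouping was chosen after the values were seen. Copy number was not measured, and whether it differs between the labels was not tested.

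**Figure D4:**
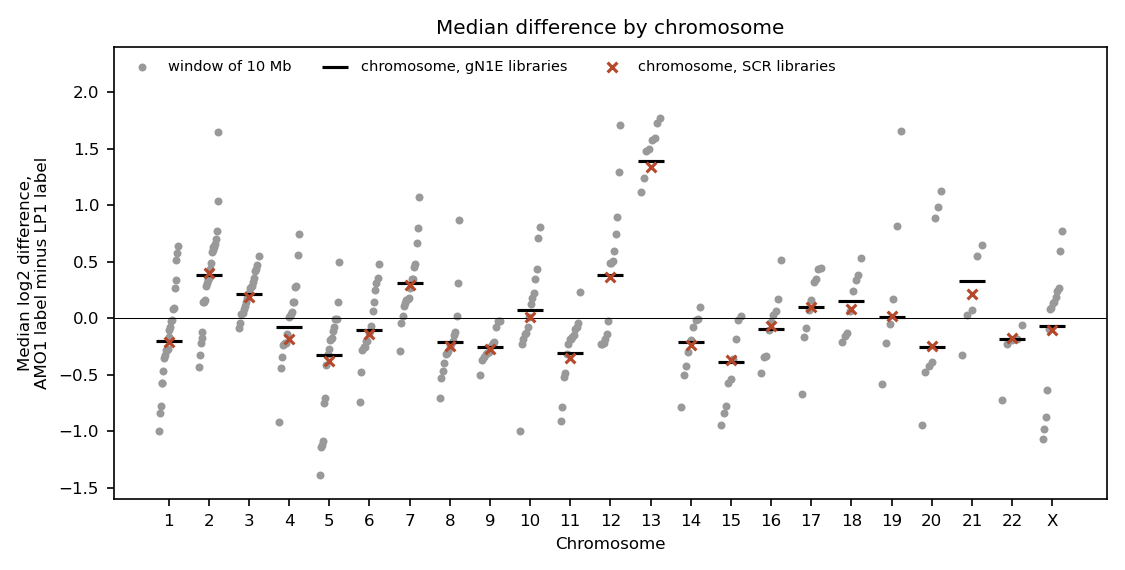
Median log2 difference (AMO1 label minus LP1 label) of each chromosome in the gN1E libraries (black bars) and in the SCR libraries (crosses), with grey points for windows of 10 Mb ordered by value. Chromosome 13 lies at 1.39 and 1.34, apart from all others, and the lowest points are on chromosome 5.

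The same contrast was drawn in the 6 libraries labelled AMO1 SCR and LP1 SCR, where NEAT1 is low, and which share no library with the first. Of 25406 genes tested there, 18066 (71.1%) passed, 8985 (35.4%) higher under AMO1 SCR and 9081 (35.7%) under LP1 SCR. Genes that passed in both comparisons numbered 15291, which is 91.3% of the calls in the gN1E libraries and 84.6% of those in the SCR libraries. They were on the same side in 15278 and on opposite sides in 13, and the latter count rose to 71 with library size only in the gN1E libraries. Of the genes above, 4 are given here in the SCR libraries, and unlike NEAT1 they were near their gN1E levels: CCND2 was 1737 ± 67.8 CPM under AMO1 SCR and 1.43 ± 0.155 CPM under LP1 SCR, and FGFR3 0.131 ± 0.0542 against 661 ± 50.8 CPM (SD, n = 3 each). CD74 was 2329 ± 309 against 0.986 ± 0.265 CPM and XBP1 90.3 ± 4.97 against 1526 ± 23.1 CPM (SD, n = 3 each). These 4 differences were thus present in both pairs of groups.

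**Figure D5:**
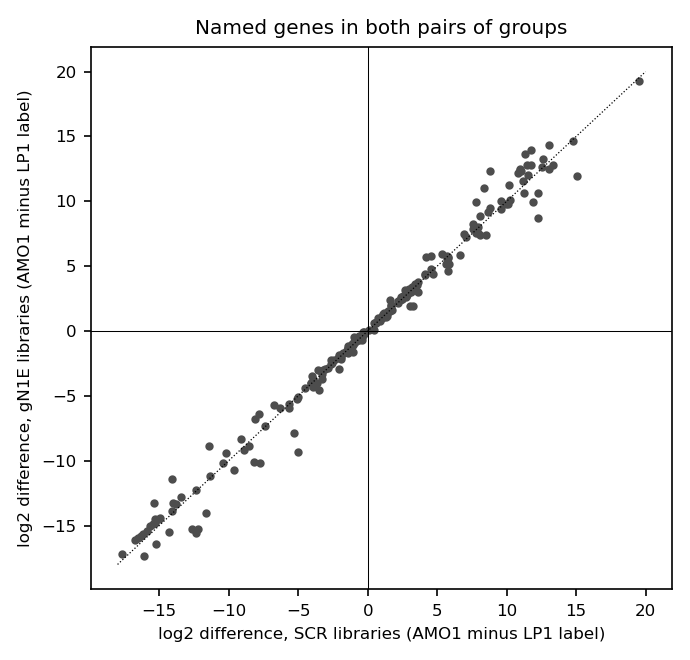
Log2 difference (AMO1 label minus LP1 label) of each named gene in the libraries labelled gN1E (vertical) and labelled SCR (horizontal), with a dotted line where both are equal. Points lie along the line, and the scatter is widest for genes with few or no counts under one label, whose fitted values are no bounds.

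A test of whether the line difference itself differed between the gN1E and the SCR labels, over all 12 libraries, passed for 103 of 25769 genes (0.400%), 79 with a larger and 24 with a smaller AMO1 minus LP1 difference in the gN1E libraries. Of the 40 genes the study followed, 10 passed, but the study chose them partly on the AMO1 libraries tested here, so that count is not independent evidence. None of the 224 named genes tested did (2 did with the block given below), while 96 of the 103 passed in the gN1E comparison. EXOC4, a subunit of the exocyst that tethers secretory vesicles, was 123 ± 2.66 CPM under AMO1 gN1E and 70.6 ± 2.34 CPM under LP1 gN1E, and 41.0 ± 2.25 CPM under AMO1 SCR and 46.5 ± 3.60 CPM under LP1 SCR (SD, n = 3 each). These levels were scaled over all 18 libraries. EXOC4 was thus higher under the AMO1 label in the gN1E libraries. In the SCR libraries it was lower there by little (log2 -0.17, adjusted p = 0.0335 in the separate comparison). Its interaction was 0.95 on the log2 scale (SE 0.0873, adjusted p = 1.44e-06). Left out one at a time, 2 libraries moved the count of 103 by more than 1.5 times, to 62 without AMO1 gN1E D and to 66 without AMO1 SCR D. The gN1E and SCR libraries of a line share replicate letters, and with the letter as a block within each line 184 genes passed, 102 of the 103 among them and on the same side, and EXOC4 was 0.9486 (SE 0.0759). EXOC4 was named after its values were seen.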

How the data were processed

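Total RNA from 18 myeloma libraries was sequenced. The 6 of the main comparison and 6 labelled SCR were used here. The 3 labelled H929 gN1E were used for immunoglobulin levels, and all 18 in a joint fit run as an alternative. The authors aligned reads with STAR 2.7.10a to hg38 and counted read pairs per gene with featureCounts 1.6.4 on GENCODE 43, by strand, and the deposited values are raw counts with no normalization. Groups were taken from the sample labels. Of 62703 genes listed, 62686 had a symbol. A gene was tested when 1 or more of the 6 libraries held 10 reads, with edgeR 4.0.16 (TMM scaling, robust quasi-likelihood test, Benjamini-Hochberg adjustment, threshold 0.05), a method checked on simulated data. CPM values use the same scaling except where another is named, and TPM values the gene lengths of the files. Folds against a group with 0 counts use a floor of 3 counts over the group, and with 1 to 3 counts a 95% counting interval, which covers counting error only. The interaction was fitted over 12 libraries.

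The named genes are NEAT1, MALAT1, the lineage markers, the 15 largest differences on each side whose average log2 CPM reached 2, the 8 most abundant on/off genes on each side, all members of gene lists of up to 10 genes, up to 3 members on each side of longer lists, and the leading variable segments; genes named outside this rule are marked. There were 35 gene lists, 3 of them for the cell cycle. Members, lists and rules were chosen with earlier results of these data known. Medians by position left out immunoglobulin genes. Alternatives were DESeq2 1.42.0, limma-voom (limma 3.58.1), other scalings, filters and thresholds, thinned counts, a replicate block and leaving out each library. Python 3.11.15 was used for tables. Some genes, and 1 of the gene lists, are not reported here; the counts of genes in the text still include them.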

Additional observations from a re-analysis of the deposited data

Results flagged for a closer look

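The line difference itself differed between the libraries labelled gN1E and those labelled SCR for 103 genes by an interaction test over 12 libraries. The 7 genes given here passed the test on opposite sides in the separate comparisons, some narrowly on 1 side. In the gN1E libraries the log2 difference was 0.118 for CNOT6, 0.18 for GMDS and 0.15 for FOXN3 (adjusted p = 0.0481, 0.0370 and 0.0148). In the SCR libraries it was -0.17 for EXOC4 and -0.17 for MTMR10 (adjusted p = 0.0335 and 0.0147). Scaling by library size only moved the median of all genes by 0.1426 in the gN1E libraries, which is near these sizes. The interaction (gN1E minus SCR, log2) was 0.95 for EXOC4, 1.02 for GMDS, 0.59 for UNC13B, 0.64 for FOXN3, 0.53 for CNOT6, 2.04 for LRGUK and 0.37 for MTMR10. They were named because of their values.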

How the results depend on the processing

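Of 224 named genes tested, 219 passed, and 216 of these kept call and direction in every alternative that tested them, except the replicate block (3 of the 216 were not tested in each); NEAT1, LYN and MATR3 lost the call with library size only, and MATR3 also with DESeq2, with no filter and without any 1 library but AMO1 gN1E C. JCHAIN and EPCAM gained a call with limma-voom and without 1 library (JCHAIN: LP1 gN1E D; EPCAM: AMO1 gN1E D or LP1 gN1E B), and EPCAM also with the joint fit of 18 libraries and with library size only. Leaving out 1 library gave 15860 to 16179 calls in all. Each cause was not tested.

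Genes called on opposite sides in the gN1E and SCR comparisons, 13 in number, became 53 with library size only in the SCR libraries, 71 with it in the gN1E libraries, 7 with the replicate block, and 9 to 17 when 1 library was left out. The interaction count of 103 ranged from 62 to 136 when 1 library was left out, and blocking on letters within each line gave 184. Genes on under the AMO1 label alone fell from 217 to 113 with 0 counts required and to 74 at 5 CPM, and those on under the LP1 label alone fell from 573 to 280 at 5 CPM. The median log2 difference on chromosome 13 was 1.43 at a mean of 5 CPM, 1.34 in the SCR libraries, 1.54 with library size only, and 1.34 to 1.42 when 1 library was left out. The highest window median was 3.31 in windows of 5 Mb, 2.06 at a mean of 5 CPM and 1.91 with library size only, and the lowest -3.21 in windows of 5 Mb and -1.25 with library size only.

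Directions that reversed belonged to genes that did not pass: JCHAIN at 0.0429 and MALAT1 at 0.0838 with library size only, CLDN4 at -0.001 without AMO1 gN1E D, and KRT7 at -0.15 without AMO1 gN1E C, -0.017 without LP1 gN1E A and -0.0271 without LP1 gN1E D; without 1 library the ranges were -0.001 to 0.2364 for CLDN4 and -0.1501 to 0.2366 for KRT7.

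The replicate letters A and D are shared, and correlations of residuals between libraries with the same letter were -0.119 and -0.14 (gN1E) and 0.144 and 0.205 (SCR), so the letters do not show pairing between the lines; the block cost IGHG4, LYN and MATR3 their calls. Within a line, between gN1E and SCR libraries, the same letter gave 0.126 to 0.185 under AMO1 and -0.061 to 0.205 under LP1, and other letters -0.265 to 0.0971 and -0.149 to 0.163; whether these are pairs was not settled. The interaction, on/off and position alternatives with a library left out, the block within each line, and the library size and size factor alternatives of the interaction and of position, were chosen after seeing the data. Depth limits the genes with few counts under one label.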
